A study of Mus musculus with 6 samples.

Results

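The genes described here belong to the germline: they act in the specification of germ cells, in the small-RNA pathway that protects the germ cell genome, in meiosis, and in the maturation of sperm. They were a fixed list of 41 symbols. Of these, 40 had a probe set assigned to that gene alone in the array's annotation and Syce3 was not analysed here, so the description covers 40 of the 19937 genes tested. Where a gene had several such probe sets, the probe set with the highest mean was used.

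The measurements were 6 Affymetrix arrays of mouse embryonic stem cells, 3 per treatment. All cells were of a single V6.5 line with a biotin and 3xFLAG tag knocked in at the endogenous Ctnnb1 gene, which encodes β-catenin, and with the biotin ligase BirA. They were grown in serum with LIF on feeder cells isolated from DR4 mice. The groups differed in a 24 h treatment, with 3 µM CHIR99021, which blocks GSK3 and so stabilises β-catenin, or with XAV939, a tankyrase inhibitor that lowers β-catenin. The XAV939 dose was 3 µM in the sample labels and 1 µM in the treatment protocol. There were no untreated arrays, so a difference between treatments was not assigned to either compound. Nothing in the labels said that replicates were separate cultures, and p-values therefore measured the spread between these arrays, which may be technical.

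Primordial germ cells arise in the mouse from the epiblast in response to BMP and Wnt signals, and a small transcription factor network with Prdm1 in it switches them to the germline fate. Later, germ cells silence transposons with PIWI proteins and piRNAs, and enter meiosis, in which the synaptonemal complex holds homologous chromosomes together while breaks are repaired. In embryonic stem cells many of these genes are held back by promoter DNA methylation and by a Polycomb complex that contains MGA, MAX and E2F6. Several of them are nonetheless transcribed at a low level in cultured stem cells.

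As a check of the treatments, the β-catenin feedback gene Axin2 was measured at 5.57 ± 0.19 on the log2 scale on XAV939 arrays and at 7.48 ± 0.06 on CHIR99021 arrays (SD, 3 arrays each). The cells carried markers of undifferentiated stem cells on all arrays, with array means of 8 such genes between 10.75 and 10.84. Single genes moved in both directions within this flat mean. Of the 8, 3 rose with CHIR99021 (Esrrb by 0.60, Nanog by 0.49 and Zfp42 by 0.25). Another 2 fell, with differences of -0.63 for Tdgf1 and -0.20 for Sall4. The share called was 62.5%, beside 9.65% of all genes. Markers of other states also moved with treatment. Of 8 primed epiblast markers 7 fell with CHIR99021, Pim2, Otx2, Dnmt3a and Dnmt3b among them. The share was 87.5%, beside 4.34% of all genes, and Sox3 did not pass. The mean of the 8 per array was 7.25 to 7.37 with CHIR99021 and 8.41 to 8.49 with XAV939. Of 15 fibroblast markers 7 rose and 8 did not pass, with Col1a1, Pdgfrb, Tagln and Acta2 the 4 of smallest p. The share that rose was 46.7%, beside 5.31% of all genes. Over all 15 markers, array means were 6.54 to 6.59 with CHIR99021 and 6.24 to 6.33 with XAV939. Among the 8, Col3a1, Col6a1 and Thy1 differed by 0.10, 0.006 and -0.08 at mean levels of 6.35, 6.43 and 6.41. Lum, Dcn and Postn were near the low end of the scale at mean levels of 4.05, 4.42 and 4.27. Primitive streak markers rose in 3 of 6 cases (Mixl1, Eomes and Evx1). None of 4 measured markers of the 2-cell-like state passed in limma, and 0 had an unadjusted p under 0.05. Of the 9 listed, Zscan4c, Zscan4d, Zscan4f, Dux and Tcstv1 were not analysed. Of the 4 measured, 3 lay below the median level of probe sets, so the state was read only in part. The part of any of these cells or states in the results on germline genes was not tested, and in such bulk RNA fewer cells of a type and less RNA per cell cannot be told apart.

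Of the 40 germline genes, 7 fell and 2 rose with CHIR99021 at an adjusted p under 0.05 in limma's moderated test, and 31 did not pass. The genes that fell were Rhox9, Mael, Sycp3, Dmc1, Ddx4, Stra8 and Syce1, and those that rose were Nanos3 and Tex15. Over all genes tested 9.65% passed, 4.34% downward and 5.31% upward, against 17.5% and 5.0% of the 40. The share that rose was thus near the background, and the members were chosen with results of these arrays known. The changes were small, the largest being 1.58-fold for Nanos3 and 1.54-fold for Rhox9. The median log2 difference of the 40 genes was -0.031, beside 0.007 for all genes. In 17 of the 40 the arrays of the treatments were fully separated, 11 lower and 6 higher, where 25.1% of all genes were, 11.0% lower and 14.1% higher. With all 34760 probe sets of the array tested and adjusted together, only Nanos3, Rhox9 and Mael of the 9 passed.

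**Figure D1:**
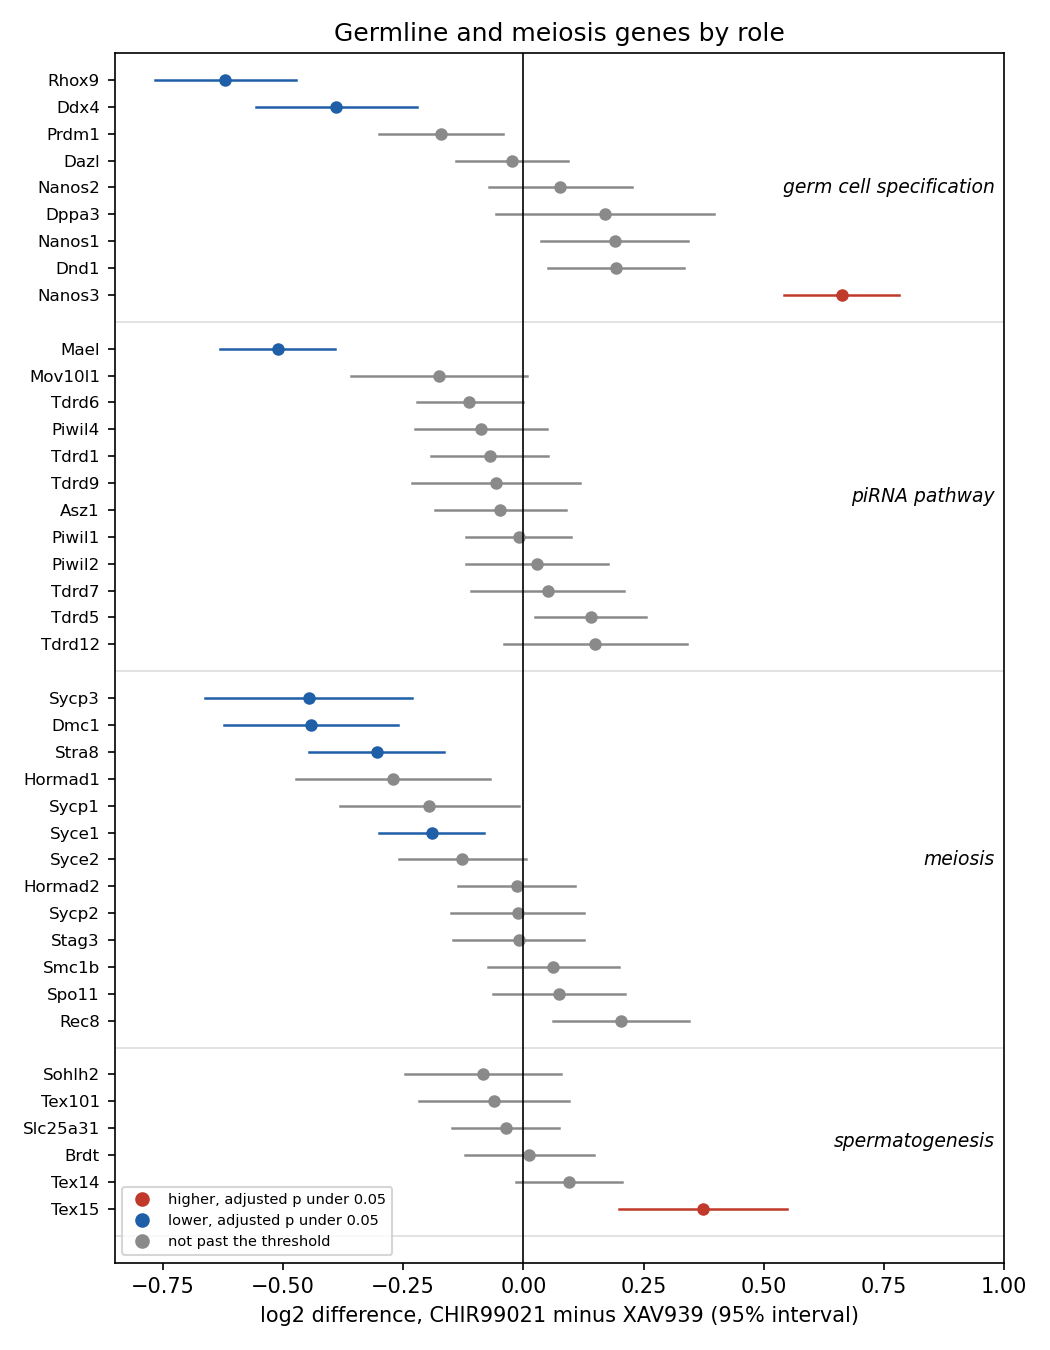
Log2 difference, CHIR99021 minus XAV939, of each of the 40 germline genes (points) with its 95% interval from limma (bars), grouped by role and ordered within each role. The genes that fell lie mostly in the meiosis group, where 4 of 13 passed, and Nanos3 and Tex15 are the genes that rose.

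Among 9 genes of germ cell specification and of primordial germ cell RNA regulation, 1 rose, 2 fell and 6 did not pass. These shares of 11.1% up and 22.2% down rest on few genes, beside 5.31% and 4.34% of all genes. Nanos3 (probe set 10580131) encodes a zinc-finger RNA-binding protein that keeps primordial germ cells alive. Its log2 levels were 6.84, 6.91 and 6.80 with CHIR99021 and 6.14, 6.21 and 6.22 with XAV939. Every CHIR99021 array lay above every XAV939 array, and the gap between treatments was several times the spread within them. The log2 difference was 0.66 ± 0.05 (SE), with an adjusted p of 2.7e-05.

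The other members of the Nanos family, which share the zinc-finger fold, were called in neither direction. Nanos1 differed by 0.19 (95% interval 0.04 to 0.34, adjusted p = 0.135) and Nanos2, a factor of male germ cells, by 0.08 (-0.07 to 0.23). Neither interval reached the lower bound of the interval of Nanos3, which was 0.54 to 0.78, although the difference between family members was not itself tested. Dnd1, an RNA-binding partner of NANOS proteins in germ cells, differed by 0.19 (0.05 to 0.33, adjusted p = 0.0951), and its arrays did not overlap.

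Rhox9 (probe set 10604154), a homeobox gene of the X-linked reproductive cluster expressed in germ cells and gonads, had the largest fall. Its log2 levels were 6.84, 6.72 and 6.63 with CHIR99021 and 7.32, 7.31 and 7.42 with XAV939, with no overlap. The difference was -0.62 ± 0.07 (SE), with an adjusted p of 0.000168.

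Ddx4 (probe set 10412155), the Vasa RNA helicase that marks germ cells after they reach the gonad, was at 7.65, 7.55 and 7.67 with CHIR99021 and at 7.85, 8.08 and 8.11 with XAV939. The treatments did not overlap, and XAV939 replicate 1 was the array nearest to the CHIR99021 values. The difference was -0.39 ± 0.07 (SE), with an adjusted p of 0.00763, which became 0.0579 when all probe sets were tested.

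Prdm1, the transcriptional repressor BLIMP1 at the head of germ cell specification, did not pass. It was at 5.69, 5.78 and 5.67 with CHIR99021 and 5.85, 5.97 and 5.84 with XAV939, lower on every CHIR99021 array by a small margin (-0.17, 95% interval -0.30 to -0.04, adjusted p = 0.107). Dppa3, also called Stella, protects the maternal genome from demethylation and marks both primordial germ cells and naive stem cells. Its levels of 7.27, 7.49 and 7.25 with CHIR99021 overlapped those of 7.32, 7.25 and 6.93 with XAV939. The difference of 0.17 (-0.06 to 0.40) did not pass, and the other Dppa3 probe set differed by 0.03 ± 0.07 (SE, in the fit of all probe sets). Dazl, a translational regulator that licenses germ cells for meiosis, was at 4.97, 4.89 and 4.89 with CHIR99021 and 4.91, 4.93 and 4.98 with XAV939. These values overlapped, and the interval of the difference, -0.14 to 0.09, was the narrowest of the 9.

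Of 12 piRNA pathway genes only Mael passed, and the other 11 did not. This share, 8.33%, was below the 9.65% of all genes. Mael (probe set 10359801) encodes Maelstrom, a protein of the germ granules in which transposon transcripts are processed. Its log2 levels were 5.14, 5.10 and 5.15 with CHIR99021 and 5.59, 5.71 and 5.63 with XAV939. The arrays of each treatment lay close together, at SDs of 0.02 and 0.06 (n = 3 each), and did not overlap. The difference was -0.51 ± 0.05 (SE), or 1.43-fold, with an adjusted p of 0.000159. Both treatment means were below 5.68, the median of the mean levels of all probe sets.

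The PIWI proteins themselves, which bind piRNAs and cut or silence transposon transcripts, were not called. Piwil2 was at 7.02, 6.90 and 7.02 with CHIR99021 and at 6.84, 6.95 and 7.05 with XAV939, which overlap (difference 0.03, 95% interval -0.12 to 0.18). Piwil1 differed by -0.01 (-0.12 to 0.10) and Piwil4 by -0.09 (-0.23 to 0.05), both at levels below the median of probe sets.

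The Tudor-domain genes encode scaffolds that bind methylated arginines of PIWI proteins, and none of the 6 passed. Tdrd12 had the highest level of this group, with a mean log2 level of 9.52, at percentile 92.3 of all probe sets, and differed by 0.15 (-0.04 to 0.34). Tdrd5 was higher on all CHIR99021 arrays (0.14, 0.02 to 0.26, adjusted p = 0.147) and Tdrd6 lower on all of them (-0.11, -0.22 to -0.001, adjusted p = 0.238). Tdrd1, Tdrd7 and Tdrd9 overlapped between treatments, with differences of -0.07, 0.05 and -0.06. Mov10l1, the helicase that feeds precursors into the pathway, differed by -0.18 (-0.36 to 0.007) and Asz1, a mitochondrial-surface protein of the same granules, by -0.05 (-0.18 to 0.09).

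Of 13 meiosis genes 4 fell, none rose and 9 did not pass in limma, while 1 (Rec8) had an unadjusted p under 0.05 and a higher level. The share that fell was 30.8%, beside 4.34% of all genes. The median difference of these 13 was -0.127. Dmc1 (probe set 10430555) is the recombinase that pairs broken DNA with the homologous chromosome. It was at 6.04, 6.12 and 6.18 with CHIR99021 and at 6.37, 6.62 and 6.69 with XAV939. The treatments did not overlap, and XAV939 replicate 1 was again nearest to the CHIR99021 arrays. The difference was -0.44 ± 0.08 (SE), with an adjusted p of 0.00577 (0.0533 when all probe sets were tested).

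Sycp3 (probe set 10365627) builds the lateral elements along meiotic chromosomes. Levels were 4.17, 4.18 and 4.23 with CHIR99021 and 4.38, 4.77 and 4.78 with XAV939. The CHIR99021 arrays were close together, while XAV939 replicate 1 stood between them and the other XAV939 arrays. The difference was -0.45 ± 0.10 (SE), with an adjusted p of 0.0147. The call was lost without CHIR99021 replicate 1 or 2 or without XAV939 replicate 2 or 3, at adjusted p values from 0.0563 to 0.0625.

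Stra8 (probe set 10537231), the retinoic acid-induced gene for meiotic entry, was at 4.84, 4.90 and 4.76 with CHIR99021 and at 5.22, 5.16 and 5.04 with XAV939. The treatments did not overlap, here with XAV939 replicate 1 the highest array. The difference was -0.30 ± 0.06 (SE), with an adjusted p of 0.0114, which became 0.0612 when all probe sets were tested. Sycp3 and Stra8 lay below the median level of probe sets on both treatments.

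Syce1 (probe set 10568968), a central-element protein of the synaptonemal complex, had the smallest change of the genes that passed. It was at 6.51, 6.51 and 6.50 with CHIR99021 and at 6.73, 6.67 and 6.70 with XAV939, with little spread and no overlap. The difference was -0.19 ± 0.05 (SE), with an adjusted p of 0.0353. Leaving out any single array ended the call, at adjusted p values from 0.0542 without XAV939 replicate 1 to 0.12 without CHIR99021 replicate 2.

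**Figure D2:**
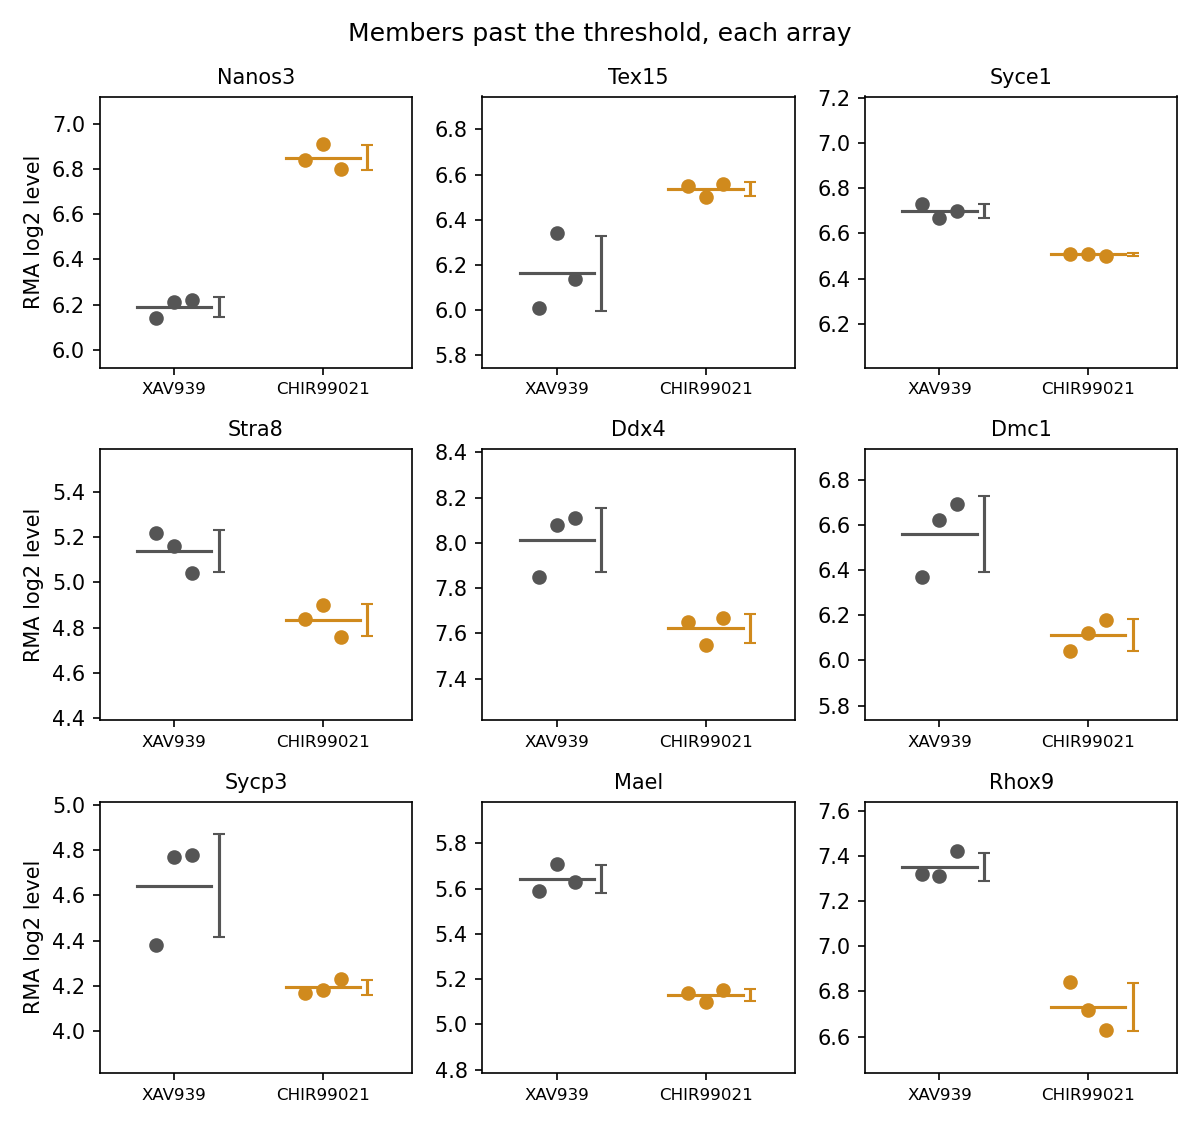
RMA log2 level of the 9 germline genes that passed, with 1 panel per gene, points for the 3 arrays of each treatment, horizontal lines for means and bars for the SD beside them. All panels span the same height, so that Syce1, which differed by -0.19, shows the smallest step and Nanos3, at 0.66, the largest.

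Among the meiosis genes that did not pass, Hormad1, an axis protein that monitors synapsis, was lower on all CHIR99021 arrays (-0.27, 95% interval -0.47 to -0.07, adjusted p = 0.102). Without XAV939 replicate 1 it differed by -0.37 with an adjusted p of 0.0087. Its other probe set differed by -0.12 ± 0.09 (SE, in the fit of all probe sets). Rec8, the meiotic cohesin subunit cleaved at anaphase, went the other way, higher on all CHIR99021 arrays (0.20, 0.06 to 0.35, adjusted p = 0.0817), and at 0.26 with an adjusted p of 0.0188 without XAV939 replicate 1.

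The remaining cohesin and axis genes, Smc1b, Stag3, Hormad2 and Sycp2, overlapped between treatments, as did Sycp1 and Spo11. Smc1b differed by 0.06 (-0.07 to 0.20), Stag3 by -0.01 (-0.15 to 0.13) and Hormad2 by -0.01 (-0.14 to 0.11). Sycp1, the transverse filament protein, differed by -0.20 (-0.38 to -0.009, adjusted p = 0.215), and Sycp2, the partner of SYCP3, by -0.01 (-0.15 to 0.13). Syce2 had the highest level of all 40 genes, at a mean log2 level of 9.60. It was lower on all CHIR99021 arrays without passing (-0.13, -0.26 to 0.005). Spo11, which makes the DNA breaks that start recombination, differed by 0.07 (-0.06 to 0.21) at a mean level of 4.27.

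Spermatogenesis genes were 6, of which Tex15 rose and 5 did not pass. The share that rose, 16.7% beside 5.31% of all genes, was this 1 gene. Tex15 (probe set 10571252), a nuclear factor of male germ cells needed for transposon silencing and meiotic recombination, was at 6.55, 6.50 and 6.56 with CHIR99021 and at 6.01, 6.34 and 6.14 with XAV939. The CHIR99021 arrays were tight and the XAV939 arrays more spread, without overlap. The difference was 0.37 ± 0.08 (SE), with an adjusted p of 0.0123. Without CHIR99021 replicate 1 or 3 the call was lost narrowly (0.0511 and 0.0504), as it was when all probe sets were tested (0.079). Tex14, a protein of the bridges between germ cells, was higher on all CHIR99021 arrays by a small amount (0.10, -0.01 to 0.21). Sohlh2, a helix-loop-helix factor of spermatogonia, differed by -0.08 (-0.25 to 0.08), Tex101 by -0.06 (-0.22 to 0.10), the bromodomain gene Brdt by 0.01 (-0.12 to 0.15), and Slc25a31, the germ cell ADP/ATP carrier, by -0.04 (-0.15 to 0.07).

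Levels of the members were mostly low to moderate, but Syce2 and Tdrd12 lay high, at percentiles 92.8 and 92.3 of all probe sets. Mean log2 levels of the 40 ran from 4.04 for Sycp2 to 9.60 for Syce2, with a median of 5.64 beside 6.07 for all genes tested, and 20 of the 40 lay below the median of all probe sets. A level on these arrays depends on the probes as well as on the RNA, so this order is no order of amounts, and without detection calls a low value does not separate weak transcription from background. Of the 20 low members 3 passed (Mael, Stra8 and Sycp3), where 2.25% of all genes below that median did, and of the other 20 members 6 passed, where 15.3% of genes above it did. RMA tends to compress the differences of weak genes.

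**Figure D3:**
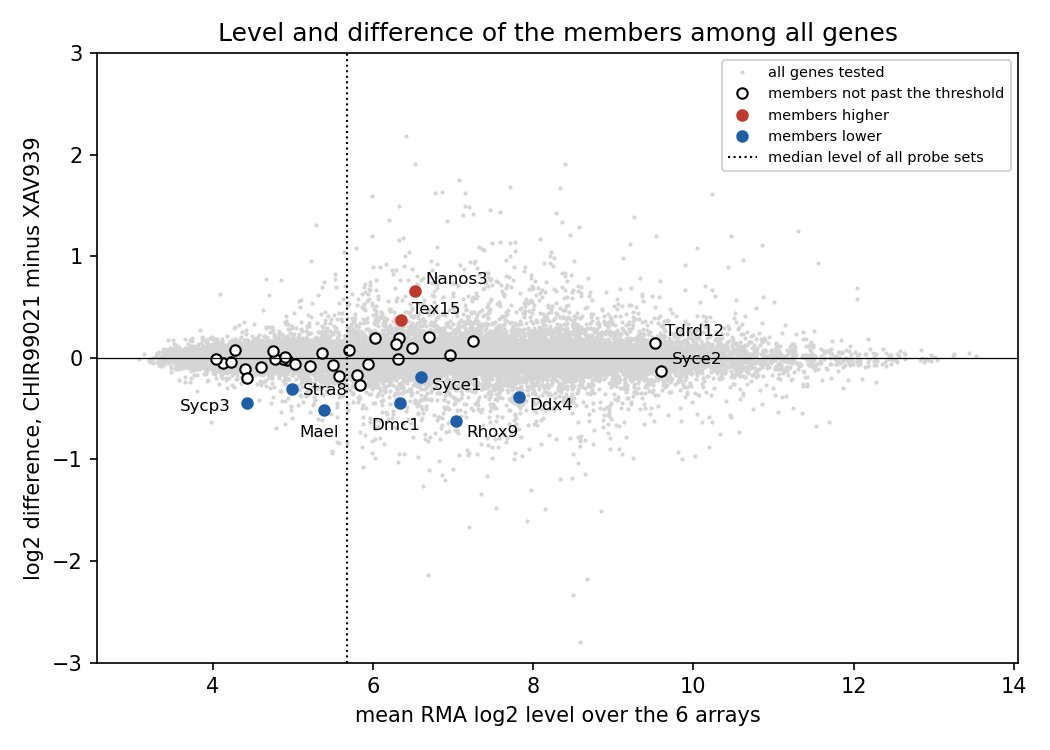
Log2 difference, CHIR99021 minus XAV939, against the mean RMA log2 level over the 6 arrays, for all 19937 genes tested (grey) and for the 40 germline genes (large points), with a dotted line at the median level of all probe sets, 5.68. All genes together span -2.79 to 2.18, whereas the germline genes lie between -0.62 and 0.66, and 3 of the genes that fell lie left of the line.

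The members were also described by the sequence just before their start, beside all genes with such a sequence. RefSeq promoter windows of the build GRCm38.p6, cut to the 250 bases before the start, matched 34 of the 41 listed genes, 7 of the 9 that passed among them, with Rhox9 and Tex15 the others. Motifs were searched as exact letters on both strands: CACGTG, the E-box read by MYC, MAX and MGA, TCCCGC, a core of E2F-type sites, and CTTTGA, the core of TCF/LEF sites. The windows shown belong to the genes that fell and hold the E-box or E2F letters, and to Nanos3, which rose and holds none of the 3 motifs. Capitals mark the matches, with GCGGGA being TCCCGC on the opposite strand.
Mael promoter, chr1:166238745-166238994, minus strand: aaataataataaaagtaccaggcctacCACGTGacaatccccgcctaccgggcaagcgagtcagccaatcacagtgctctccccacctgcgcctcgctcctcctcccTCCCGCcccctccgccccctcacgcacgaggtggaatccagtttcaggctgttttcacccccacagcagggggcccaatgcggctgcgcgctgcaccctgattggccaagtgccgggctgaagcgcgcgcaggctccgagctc
Sycp3 promoter, chr10:88459337-88459586, plus strand: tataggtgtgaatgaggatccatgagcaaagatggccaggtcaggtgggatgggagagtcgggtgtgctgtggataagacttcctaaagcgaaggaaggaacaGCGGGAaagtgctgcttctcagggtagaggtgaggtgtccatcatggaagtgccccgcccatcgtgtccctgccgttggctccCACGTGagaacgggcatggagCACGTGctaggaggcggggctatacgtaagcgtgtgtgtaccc
Ddx4 promoter, chr13:112652311-112652560, minus strand: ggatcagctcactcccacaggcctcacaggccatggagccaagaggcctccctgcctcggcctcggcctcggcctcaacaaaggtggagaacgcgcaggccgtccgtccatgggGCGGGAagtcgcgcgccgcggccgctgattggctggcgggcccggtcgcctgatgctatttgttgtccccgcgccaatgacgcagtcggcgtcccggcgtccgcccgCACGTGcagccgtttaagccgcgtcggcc
Dmc1 promoter, chr15:79605110-79605359, minus strand: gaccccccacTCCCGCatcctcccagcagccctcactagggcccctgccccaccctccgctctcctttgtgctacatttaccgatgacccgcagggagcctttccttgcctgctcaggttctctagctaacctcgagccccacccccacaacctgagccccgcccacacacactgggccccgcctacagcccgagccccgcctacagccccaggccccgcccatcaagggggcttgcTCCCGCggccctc
Nanos3 promoter, chr8:84176553-84176802, minus strand: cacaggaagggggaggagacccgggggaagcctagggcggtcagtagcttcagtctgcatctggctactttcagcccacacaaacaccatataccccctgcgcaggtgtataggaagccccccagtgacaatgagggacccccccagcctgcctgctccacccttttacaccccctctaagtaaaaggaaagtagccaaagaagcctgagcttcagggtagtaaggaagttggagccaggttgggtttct

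CACGTG was present in 13 of the 34 genes (38.2%), where 6.86% of 27025 genes in the table held it, each gene counted once over its windows. TCCCGC was present in 10 (29.4%, against 18.8%), and CTTTGA in 5 (14.7%, against 15.8%). CACGTG and TCCCGC each contain a CpG, a C followed by a G, and CTTTGA does not. Member windows held a median of 14 CpG, beside 6 over all windows. None of the shares given here was matched for CpG content, and its part in them was not tested. Both CACGTG and TCCCGC stood before 5 members, 14.7% against 1.98% of all genes. Of these 5, Mael, Sycp3 and Ddx4 fell, while Hormad1 and Syce2 did not pass. Of all 34 members with a window, 6 fell. How many of all genes with both motifs fell was not computed, so these 5 genes do not link the motifs to a fall. Of the 13 E-box genes 10 did not pass, among them Piwil1, Tdrd9 and Stag3. Of the 6 genes that fell and had a window, Stra8 had none of the 3 motifs in its window and Syce1 had CTTTGA. A match describes letters in a window and is no measurement of binding, and methylation was not measured.

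Related genes outside the members were taken from lists of the same pathways, which were chosen with earlier results of these data known. Of 22 other meiosis genes 1 was lower and none higher (4.55% called, beside 9.65% of all genes), with 1 higher at an unadjusted p under 0.05. The gene that fell was Meioc, a partner of YTHDC2 in maintaining the meiotic programme, and its difference was larger in size than that of any member. It was at 4.94, 5.01 and 5.11 with CHIR99021 and at 5.67, 6.08 and 6.13 with XAV939, without overlap, for a difference of -0.94 ± 0.11 (SE, adjusted p = 0.000296). Of 14 other piRNA pathway genes, 1 fell, Tdrkh, a Tudor protein of the mitochondrial surface, by a small amount (-0.28 ± 0.06, SE, adjusted p = 0.0149), and none rose, with 1 higher at an unadjusted p under 0.05.

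Of 19 other genes of the primordial germ cell network 6 rose, 3 fell and 10 did not pass. This list too was chosen with earlier results known, so its share is no independent evidence. The share called was 47.4%, beside 9.65% of all genes. Of genes at or above the median level of probe sets, where all but 2 of the 19 lay, 15.3% were called. Bmp4, the signal that induces primordial germ cells, rose by 1.12 ± 0.05 (SE), Kit, the receptor that supports their survival and migration, by 1.00 ± 0.06, the tissue-nonspecific alkaline phosphatase gene Alpl by 0.78 ± 0.08, and Nanog by 0.49 ± 0.05. Wnt3, the Wnt ligand of the early epiblast, and Tfap2c, a transcription factor downstream of PRDM1, also rose, by 0.86 ± 0.10 and 0.24 ± 0.05, and are named after their values were seen. Ifitm3 fell by 0.37, Lin28a fell by 0.21 and Sall4 fell by 0.20. Many of these genes also act in pluripotent cells, and Nanog and Sall4 were also counted above among the stem cell markers. Prdm14, which acts beside PRDM1, was higher on all CHIR99021 arrays but did not pass (0.24 ± 0.07, adjusted p = 0.0514).

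Of 23 factors known to act on the silencing of germline genes in embryonic stem cells, 7 fell and 16 did not pass. The list was chosen with earlier results of these data known, so its share is no independent evidence. The share that fell was 30.4%, beside 4.34% of all genes. All 23 lay above the median level, where 15.3% of genes were called in either direction and a downward share was not computed. None rose in limma, and 0 had an unadjusted p under 0.05 with a higher level. The largest differences were those of the de novo methyltransferases Dnmt3a (-1.50 ± 0.07, SE) and Dnmt3b (-0.96 ± 0.07) and of their cofactor Dnmt3l (-0.64 ± 0.05). Dnmt3a and Dnmt3b were also counted above among the primed epiblast markers that fell. Ehmt1, a histone H3 methyltransferase, differed by -0.45 ± 0.05. The other genes of this list that fell were Tet1, Mga and Trim28, with differences of -0.39, -0.24 and -0.21, and they are named after their values were seen. Tet1 removes DNA methylation rather than adding it. Dnmt1, the maintenance methyltransferase, differed by -0.10 (adjusted p = 0.304), and E2f6, L3mbtl2 and Pcgf6 by 0.08, -0.06 and -0.06 without passing.

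**Figure D4:**
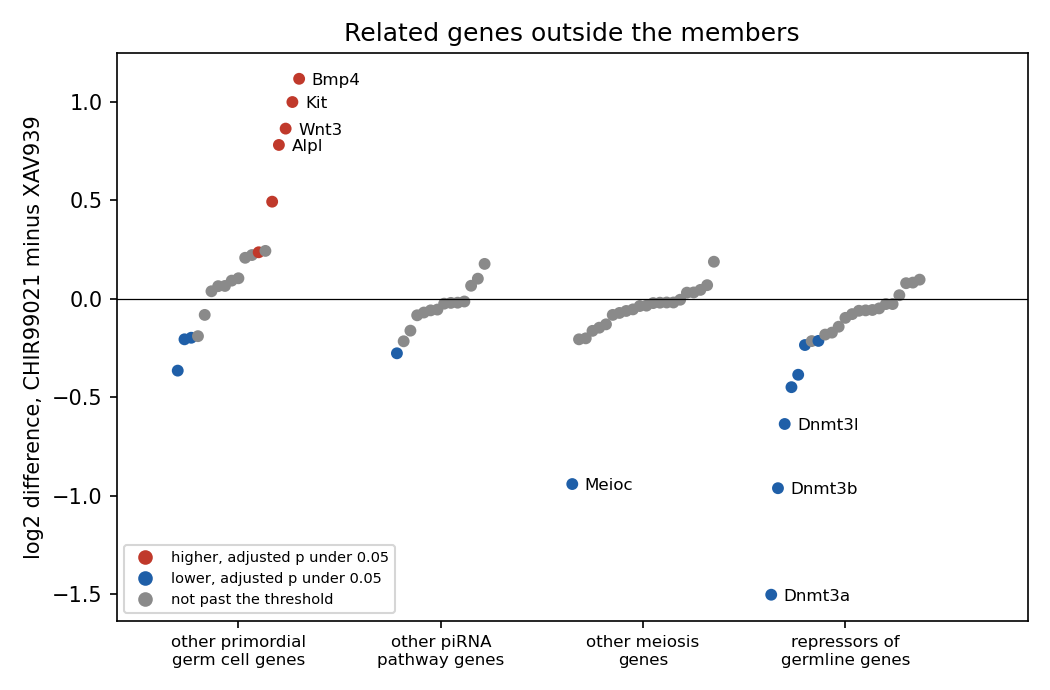
Log2 difference, CHIR99021 minus XAV939, of each measured gene in 4 lists of related genes, ordered by difference within a list and coloured by call. The list of primordial germ cell genes holds all 6 rises that passed, up to 1.12 for Bmp4, and also 3 falls. The list labelled repressors holds 7 falls, with Dnmt3a at -1.50, and 1 of them is Tet1, which removes DNA methylation. The meiosis and piRNA lists hold 1 fall each, Meioc at -0.94 and Tdrkh at -0.28.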

How the data were processed

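Total RNA of 6 samples was hybridised to 1-colour Affymetrix whole-transcript arrays, after labelling of 300 ng per sample per the labels' protocols. The deposited values are log2 levels, which the authors computed with RMA per the submitters' processing notes. Its version and the genome build were not given in the sources used here. With no scanner files used here, detection and scan batch were not assessed. The number of arrays limits the precision.

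Of 34760 probe sets, 21640 carried 1 gene symbol, 1321 carried several and were not named, and 11799 carried none. The probe set of highest mean stood for each of 19937 genes. CHIR99021 was compared with XAV939 on all 6 arrays by limma 3.58.1 (lmFit, eBayes) in R 4.3.3, with 4 residual and 6.15 prior degrees of freedom, Benjamini-Hochberg adjustment over all genes and a threshold of 0.05. Intervals are 95% intervals of that fit. Permuting 3 against 3 arrays exactly cannot give p below 0.1 and was not used.

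Members and lists were chosen with earlier results of these data known. Every member is named. From each related or marker list the rule took up to 4 genes of smallest p past the threshold in each direction. Beyond that rule, genes quoted without a call, and those marked so, were named after their values were seen. Alternatives changed scaling, the level filter, probe set choice, variance model, array weights, replicate block, genes tested, threshold and arrays used. Plots were drawn with matplotlib 3.10.9.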

Additional observations from a re-analysis of the deposited data

How the results depend on the processing

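Across the alternatives no called member turned direction, and in any fit at most 5 members without a call changed sign. Nanos3 and Rhox9 passed in all 15 fits at the 0.05 threshold other than the one reported, and Mael in all 14 that tested it. At a threshold of 0.01, 1118 genes in all and 5 members passed, 1 higher and 4 lower. With all probe sets tested, 3 members passed, 1 higher and 2 lower. Without genes below the median level, 4 of the tested members were lower, and the median difference of the members left was 0.053, since 20 members were left out. Leaving out single arrays gave 1254 (without CHIR99021 replicate 2) to 2247 genes (without XAV939 replicate 1) and 6 to 10 members called, with 1 to 3 higher and 5 to 7 lower. Array weights gave the highest counts, 2857 genes and 11 members, 3 higher and 8 lower, with Hormad1 and Rec8 gained. Leaving out XAV939 replicate 1 and CHIR99021 replicate 3 together, chosen after seeing the data, gave 2325 genes and 10 members. Same-numbered arrays did not deviate together (correlations of -0.0957, 0.0602 and -0.143), so the numbers were not taken as pairs. With the replicate block 1578 genes and 8 members passed, and Syce1 was lost (adjusted p = 0.086).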

Other observations

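Within the XAV939 group, replicate 1 was the lowest array for 20 of the 40 germline genes and for 4 of the 7 that fell, namely Ddx4, Mael, Sycp3 and Dmc1. The mean log2 level of the 7 genes was 6.21 on this array and 6.33 and 6.34 on the others of its group, against 5.87 to 5.89 with CHIR99021. Replicate 1 also had the lowest mean correlation with the other XAV939 arrays across genes, 0.9970 against 0.9978 and 0.9979.

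Somatic cells of the gonad, in which germ cells mature, have markers of their own, and 1 of 8 measured passed, a share of 12.5% near the 9.65% of all genes. This was Wt1, a transcription factor of the gonad and kidney, which fell by 0.55, from 6.45 ± 0.13 (SD, n = 3) with XAV939 to 5.90 ± 0.06 (SD, n = 3) with CHIR99021 (adjusted p = 0.000604). The remaining 7, Amh, Foxl2 and Cyp17a1 among them, did not pass, and 5 of the 8 had a mean level under the probe sets' median.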
